A study of Homo sapiens with 2 samples.

Results

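Zinc finger genes that lie outside chromosome 19 were examined in a small cell lung cancer line selected for growth in cisplatin and in the line it came from. The members were the gene names in the deposited expression table that start with ZNF, ZSCAN or ZFP followed by a digit, less those numbered in the stretch of the table that holds chromosome 19. This gave 251 of the 12494 names in the table, carried by 372 of its 19217 loci. Another 184 such names lay on chromosome 19 and served for comparison. All 251 names had a position in the GENCODE 29 annotation, and 0 of them lay on chromosome 19. For a name with several loci, which held for 79 members, the locus with the higher mean level was taken. The numbering left out a little more than chromosome 19: a locus of ZNF236 on chromosome 18, at 1.12 FPKM in resistant and 0.865 FPKM in parental cells, fell in the gap, while ZNF236 stayed a member through another locus. The nearest zinc finger loci kept at the 2 ends of the gap belong to ZNF397, at 1.93 FPKM in resistant and 1.71 FPKM in parental cells, and to ZNF512, at 13.5 FPKM in resistant and 13.8 FPKM in parental cells.

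The study compared cisplatin-resistant SBC5 cells, kept in rising cisplatin steps of 1, 2, 4 and 20 µg/ml, with untreated parental SBC5 cells. SBC5 is an established human small cell lung cancer line, both cultures were grown in RPMI medium with serum, and the resistant cells are a single selected derivative of it. Polyadenylated RNA was sequenced from strand-preserving libraries, 1 per group, so no difference below has a replicate check and no test was possible. Levels are FPKM, in which the fragments of a locus are divided by its length and by the library's size, so that genes can be compared per length. Each difference is the log2 ratio between the resistant and the parental value after 1 FPKM was added to both, for names with at least 1 FPKM in either library. Names with a ratio of 1 and above are called 2-fold higher, and those with -1 and below 2-fold lower. The added 1 understates differences of low genes.

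Most of these genes encode C2H2 zinc finger proteins, in which small loops held by zinc read DNA bases in the major groove, and a row of such fingers gives each protein its own target sequence. Many carry a KRAB domain, which binds TRIM28 (KAP1) and through it the histone methyltransferase SETDB1 and HP1 proteins, and this machinery is known for silencing transposable elements. Others carry a SCAN domain, through which such proteins pair with each other. A minority work differently, as activators, as parts of CtBP or CoREST repressor complexes, or as RNA-binding proteins. Chromosome 19 holds large clusters of young KRAB genes, and the genes elsewhere are scattered singly or in small groups.

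The promoters of 3 members with large differences are shown, since these genes give the main contrasts of level described below and differ in the make-up of the sequence before the start. Each is the 250 bases upstream of the RefSeq start in GRCh38.p14, written 5′ to 3′ on the strand of the gene. ZNF804A lies on the plus strand at chr2:184598279-184598528, ZNF669 on the minus strand at chr1:247104357-247104606 and ZNF532 on the plus strand at chr18:58862674-58862923. Capitals mark the ETS core CCGGAAG or its reverse complement CTTCCGG, and the GC box GGGCGG or CCGCCC.
ZNF804A: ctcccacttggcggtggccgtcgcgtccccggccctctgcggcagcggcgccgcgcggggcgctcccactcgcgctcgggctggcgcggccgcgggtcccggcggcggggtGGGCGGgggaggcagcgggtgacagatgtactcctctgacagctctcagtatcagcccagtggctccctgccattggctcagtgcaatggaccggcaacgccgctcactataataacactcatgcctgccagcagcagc
ZNF669: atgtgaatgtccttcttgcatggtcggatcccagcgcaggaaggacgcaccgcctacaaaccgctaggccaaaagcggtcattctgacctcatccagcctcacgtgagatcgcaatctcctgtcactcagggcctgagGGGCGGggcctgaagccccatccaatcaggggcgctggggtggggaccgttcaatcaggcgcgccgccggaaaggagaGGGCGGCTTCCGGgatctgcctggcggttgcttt
ZNF532: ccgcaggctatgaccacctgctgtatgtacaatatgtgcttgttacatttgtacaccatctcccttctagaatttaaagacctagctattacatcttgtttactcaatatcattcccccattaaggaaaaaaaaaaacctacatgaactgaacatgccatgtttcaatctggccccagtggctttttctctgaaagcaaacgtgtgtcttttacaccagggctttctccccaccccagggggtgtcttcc
The ZNF804A window held 27 CpG pairs and the GC box but no ETS core. The ZNF669 window held 18 CpG pairs with both motifs, which touch each other near the start. The ZNF532 window held 2 CpG pairs and neither motif. A gene with several starts is represented by a single window, and the RefSeq start of all 3 genes lies downstream of the start that GENCODE 29 gives.

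In resistant cells most members stood close to their level in parental cells. Of the 251 members 249 passed the filter, and ZNF214 and ZNF658 did not. Of the 249, 2 were at least 2-fold higher in resistant cells, against a background of 3.28% of the 12405 names compared, and 6 were at least 2-fold lower, against a background of 2.7%. As shares of the members these counts are 0.803% higher and 2.41% lower. A log2 ratio within 0.5 of 0 was found for 221 members, or 88.8%, and for 82.7% of all names. Low genes spread more, and members are lower than the average gene: their median level was 7.67 FPKM in resistant and 7.96 FPKM in parental cells, against 14.3 FPKM in resistant and 14.5 FPKM in parental cells over all names. Over the 8760 names with a mean level between 1.88 and 39.8 FPKM, the range of the middle 90% of members, 3.60% were higher, 2.92% were lower and 81.9% lay within 0.5. The members' share above the upper limit was thus smaller than that of genes of like level, and the share below the lower limit was near the background.

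The counts depended on how a level was computed. With 5 FPKM added to both values, 0 members were higher, against a background of 1.14%, and 3 were lower, against 1.1%. With all loci of a name summed, 1 was higher, against 3.27%, and 5 were lower, against 2.68%. With loci on the annotated strand alone, 1 was higher, against 2.84%, and 4 were lower, against 2.39%. At a 4-fold limit 0 were higher, against 0.613%, and 1 was lower, against 0.484%.

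The median log2 ratio of the members was -0.06, with quartiles of -0.23 and 0.10, beside -0.04 over all names compared. Ratios below 0 were found for 154 members, or 61.8%, and for 55.6% of all names. Zinc finger names on chromosome 19 were placed on the other side, with a median of 0.14 over 182 names and 29.1% below 0. They were also lower in level, with a median of 3.60 FPKM in resistant and 3.32 FPKM in parental cells. Of those 182, 5 passed the upper and 4 the lower limit, or 2.75% and 2.20%, against backgrounds of 3.28% and 2.7%. Together the members held 0.288% of the summed FPKM in resistant and 0.326% in parental cells. Their own loci summed to 3113 FPKM in resistant and 3322 FPKM in parental cells. The total over all loci differed too, at 1081047 FPKM in resistant and 1019555 FPKM in parental cells. Single very abundant genes weigh on that total, the highest name having 146228 FPKM in the resistant and 56508 FPKM in the parental library. In a bulk culture, less RNA per cell and fewer cells that express a gene cannot be told apart.

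**Figure D1:**
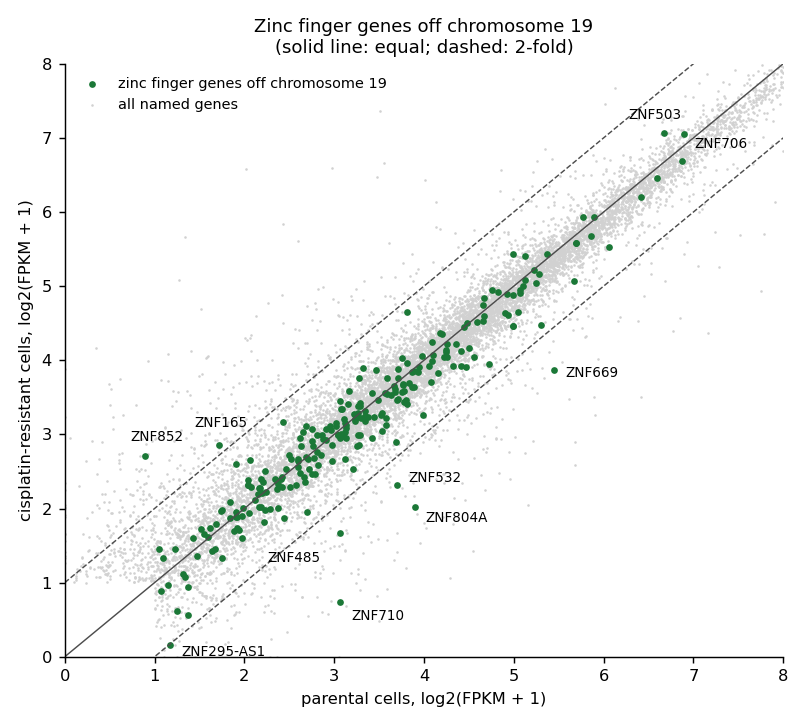
Level of each zinc finger name outside chromosome 19 in resistant and parental SBC5 cells, in log2(FPKM + 1), over all names compared in grey; dashed lines mark the 2-fold limits and both axes end at 8. Of 249 members, 2 lie beyond the limit on the resistant side and 6 on the parental side.

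**Figure D2:**
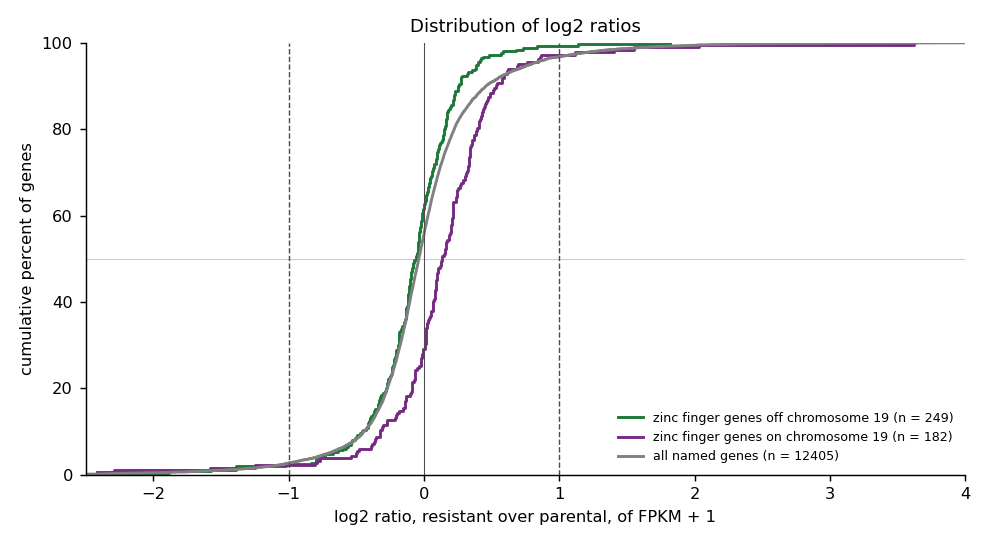
Cumulative share of names, in percent, against the log2 ratio of resistant over parental level, for members outside chromosome 19, zinc finger names on chromosome 19 and all names compared. The members' curve follows that of all names with a median of -0.06 against -0.04, and the chromosome 19 curve lies to the right with a median of 0.14.

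Of the 8 members past the limit, 4 were represented by a locus on the annotated strand whose values stood in no simple ratio, and these were ZNF804A, ZNF669, ZNF532 and ZNF165. ZNF804A, which encodes a protein with 1 C2H2 finger and is known as a risk gene for psychiatric illness, had 3.04 FPKM in resistant and 13.9 FPKM in parental cells, a log2 ratio of -1.88. It has a single locus in the table, and the gene lies on the plus strand at chr2:184598366-184939492. In parental cells its level was above that of the median member, and in resistant cells it was below it.

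ZNF669, a KRAB protein with 9 fingers encoded on the minus strand at chr1:247099962-247104372, had 13.6 FPKM in resistant and 42.7 FPKM in parental cells, a log2 ratio of -1.58. The ZNF669 name covers a further 2 loci, with 2.27 and 4.79 FPKM in resistant and 4.06 and 6.16 FPKM in parental cells. All 3 loci were therefore lower in resistant cells, and summing them gave -1.31. ZNF669 was the most abundant member past the limit in either direction.

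ZNF532, a 10-finger protein that works in a chromatin complex with ZMYND8, ZNF592 and ZNF687, had 3.98 FPKM in resistant and 12.01 FPKM in parental cells, a log2 ratio of -1.39. The gene lies on the plus strand at chr18:58862600-58986480. Its partners differed less: ZNF592 had 11.8 FPKM in resistant and 12.6 FPKM in parental cells, and ZNF687 had 11.4 FPKM in resistant and 13.6 FPKM in parental cells. In the resistant library ZNF532 was thus the lowest of the 3 zinc finger subunits, while in the parental library the 3 lay between 12.01 and 13.6 FPKM.

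The only member higher in resistant cells on such a locus was ZNF165, a SCAN protein with 5 fingers known as a cancer-testis antigen, whose expression is otherwise largely limited to the testis. It had 6.26 FPKM in resistant and 2.29 FPKM in parental cells, a log2 ratio of 1.14. ZNF165 lies on the plus strand at chr6:28080975-28089563, within a run of 10 zinc finger names from 26634383 to 28443502 on chromosome 6. The other SCAN genes of that run differed less, with ratios of -0.10 for ZSCAN9, 0.10 for ZSCAN26, -0.02 for ZSCAN31 and 0.40 for ZSCAN23.

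**Figure D3:**
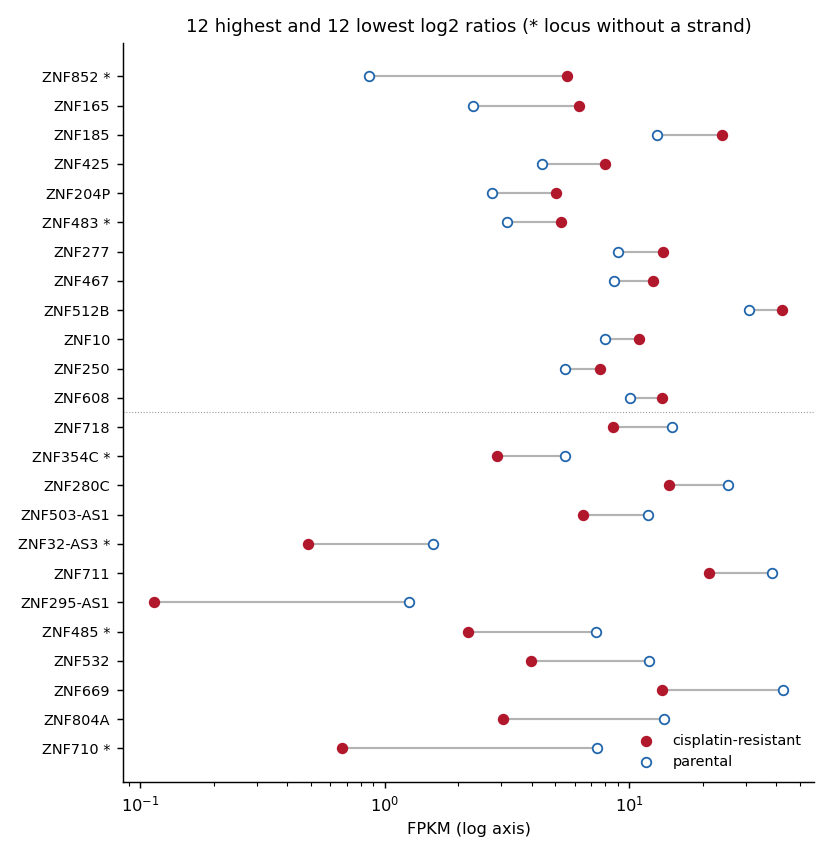
FPKM on a log axis in resistant and parental SBC5 cells for the 12 members with the highest and the 12 with the lowest log2 ratio, with filled points for resistant and open points for parental cells; an asterisk marks a name represented by a locus without a strand. ZNF852 and ZNF165 pass the upper limit, and ZNF804A, ZNF669 and ZNF532 pass the lower limit on an annotated strand at 3.04, 13.6 and 3.98 FPKM in resistant cells.

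The other 4 members past the limit were ZNF852, ZNF710, ZNF485 and ZNF295-AS1. In the order of the table each chromosome has a plus, a minus and a part of loci with no strand, and ZNF852, ZNF710 and ZNF485 were represented by loci of that last part. ZNF852, a KRAB gene, had 5.57 FPKM in resistant and 0.859 FPKM in parental cells there, a log2 ratio of 1.82, but 1.58 FPKM in resistant and 1.18 FPKM in parental cells at its locus on the annotated strand, a ratio of 0.24. ZNF710 had 0.668 FPKM in resistant and 7.38 FPKM in parental cells, a ratio of -2.33, but 2.30 FPKM in resistant and 2.52 FPKM in parental cells on the annotated strand, a ratio of -0.10. ZNF485, also a KRAB gene, had 2.19 FPKM in resistant and 7.34 FPKM in parental cells, a ratio of -1.38, but 3.02 FPKM in resistant and 3.36 FPKM in parental cells on the annotated strand, a ratio of -0.12. On the annotated strand none of these 3 genes passed the limit.

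The values of the same 3 loci stood, after 1 factor between the libraries, at ratios of small whole numbers, which were 13 to 2 for ZNF852, 1 to 11 for ZNF710 and 3 to 10 for ZNF485. The antisense RNA ZNF295-AS1, at 0.114 FPKM in resistant and 1.26 FPKM in parental cells with a log2 ratio of -1.02, stood at 1 to 11 as well. Loci covered by few fragments give such ratios, but the table holds no counts and the part of counting error in these differences was not tested. Of the 113 member loci without a strand that could be compared, 75 stood at a ratio of whole numbers up to 20, and 10 passed the limit, 8 of them at such a ratio. Of the 253 member loci in a strand part, 6 stood at such a ratio and 5 passed the limit. The same shares were not computed over all loci of each part, so these counts are not read as a trait of the members. The choice of locus also turned the sign of ZNF423, a partner of EBF transcription factors, which had 3.97 FPKM in resistant and 3.10 FPKM in parental cells at the chosen locus but 2.33 FPKM in resistant and 3.96 FPKM in parental cells on the annotated strand. ZNF232 was represented by a locus on the strand opposite to its annotation, at 45.1 FPKM in resistant and 65.7 FPKM in parental cells with a ratio of -0.53, beside 9.82 FPKM in resistant and 10.8 FPKM in parental cells on its own strand with a ratio of -0.12. ZNF70, at a locus without a strand, had a ratio of -0.19 there and -0.12 on the annotated strand. ZNF721 and ZNF32-AS3 had no locus on the annotated strand. ZNF721 was represented by a locus on the opposite strand, at 41.5 FPKM in resistant and 33.9 FPKM in parental cells with a ratio of 0.28.

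**Figure D4:**
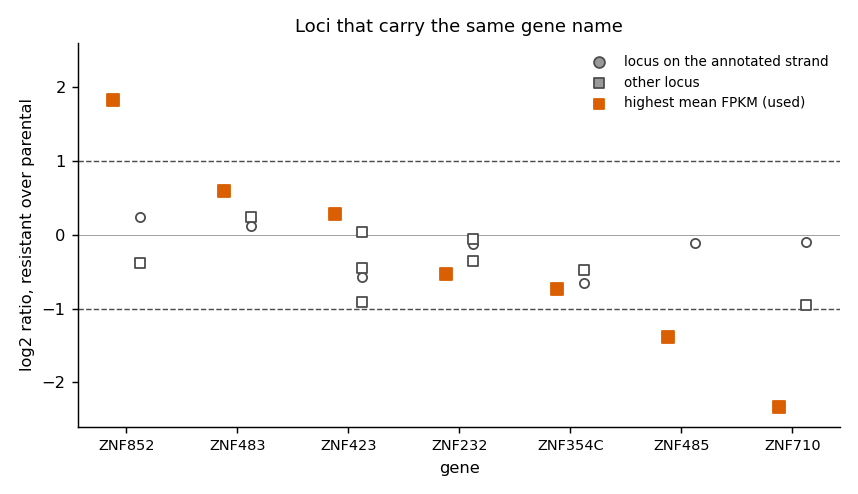
Log2 ratio of resistant over parental level for every locus of 7 of 8 members, the other being ZNF70. These 8 have a locus on the annotated strand (open circles), but the chosen locus (filled) is another. Open squares are further loci of the name and dashed lines mark the 2-fold limits. The chosen loci of ZNF852, ZNF485 and ZNF710 lie at 1.82, -1.38 and -2.33, and their loci on the annotated strand lie at 0.24, -0.12 and -0.10.

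A KRAB domain was found in the translated protein of 100 compared members, of which 1 was higher (ZNF852), against a background of 3.28%, and 2 were lower (ZNF669 and ZNF485), against a background of 2.7%, with a median log2 ratio of -0.04 beside -0.04 over all names. The lower count is near the background. ZNF852 and ZNF485 are counted here from loci without a strand, and on the annotated strand their ratios were 0.24 and -0.12. Their median level was 6.82 FPKM in resistant and 6.74 FPKM in parental cells. ZNF425, a KRAB protein with 19 fingers, had 7.96 FPKM in resistant and 4.39 FPKM in parental cells, a log2 ratio of 0.73 that stayed inside the limit. ZNF10, also called KOX1, whose KRAB domain is widely used to build artificial repressors, had 11.02 FPKM in resistant and 7.96 FPKM in parental cells. ZNF250 had 7.63 FPKM in resistant and 5.46 FPKM in parental cells. These 3 were the KRAB genes with the highest ratios on an annotated strand, between 0.42 and 0.73. At the other end ZNF718 had 8.60 FPKM in resistant and 14.9 FPKM in parental cells, and ZNF354C had 2.87 FPKM in resistant and 5.47 FPKM in parental cells.

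Members with a SCAN domain numbered 30, of which ZNF165 was higher and 0 were lower, against the same backgrounds of 3.28% and 2.7%, with a median log2 ratio of -0.04. ZSCAN21, a SCAN activator, had 6.94 FPKM in resistant and 7.27 FPKM in parental cells. Of these, 9 also had a KRAB domain and 0 of the 9 passed the limit. Among them were ZNF445, which maintains imprinted methylation together with ZFP57, at 2.69 FPKM in resistant and 2.74 FPKM in parental cells, and ZNF202, a repressor of lipid metabolism genes, at 5.33 FPKM in resistant and 5.05 FPKM in parental cells. ZNF483 had 5.28 FPKM in resistant and 3.18 FPKM in parental cells at a locus without a strand, and 3.90 FPKM in resistant and 3.52 FPKM in parental cells on its annotated strand.

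The cofactors through which KRAB and other repressor proteins act had higher levels than the zinc finger genes, with a median of 37.4 FPKM in resistant and 43.0 FPKM in parental cells, and most differed little between the libraries. Of 46 corepressor genes listed, 41 had a locus, with a median log2 ratio of -0.14. Of these, 0 were higher, against a background of 3.28%, and 1 was lower (2.44%), against 2.7%. Over all names with a mean of 20 FPKM or over the median was -0.08, with 1.09% higher and 1.66% lower. TRIM28, the scaffold that KRAB domains bind, had 188 FPKM in resistant and 188 FPKM in parental cells. SETDB1, which places the repressive H3K9 methyl mark, had 36.7 FPKM in resistant and 43.0 FPKM in parental cells, and its partner ATF7IP had 13.8 FPKM in resistant and 8.88 FPKM in parental cells. None of these 3 genes passed the limit.

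Among the HP1 proteins, which bind that mark, CBX1 had 94.0 FPKM in resistant and 151 FPKM in parental cells, a log2 ratio of -0.68, while CBX3 had 118 FPKM in resistant and 137 FPKM in parental cells. CBX5 had 22.3 FPKM in resistant and 26.8 FPKM in parental cells at a locus without a strand. The HUSH silencing complex member MPHOSPH8 had 13.6 FPKM in resistant and 13.8 FPKM in parental cells, and its partner MORC2 had 37.4 FPKM in resistant and 45.5 FPKM in parental cells. The single corepressor past the limit was RCOR1, the CoREST scaffold, with 49.2 FPKM in resistant and 104 FPKM in parental cells, a log2 ratio of -1.06. Its relative RCOR2, singled out after its values were seen, had 839 FPKM in resistant and 513 FPKM in parental cells, a log2 ratio of 0.71.

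Members in which neither domain was called were the most abundant, with a median level of 11.96 FPKM in resistant and 12.9 FPKM in parental cells over 113 names. Of these, 0 were higher, against a background of 3.28%, and 3 were lower (ZNF804A, ZNF532 and ZNF710), or 2.65% against a background of 2.7%, with a median log2 ratio of -0.09. ZNF710 is counted here from a locus without a strand, and on the annotated strand its ratio was -0.10. Zinc finger proteins of CtBP, CoREST or ZMYND8 complexes had 6 of 7 listed genes in the table, with a median of -0.22. Of these, ZNF532 was lower and 0 were higher, against backgrounds of 2.7% and 3.28%. ZNF217, an oncoprotein that recruits CtBP and CoREST, had 60.0 FPKM in resistant and 53.6 FPKM in parental cells and was the only gene of the list above 0. ZNF644, which acts with the G9a methyltransferases, had 15.6 FPKM in resistant and 18.1 FPKM in parental cells. ZNF516 had 8.58 FPKM in resistant and 10.5 FPKM in parental cells.

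Members with roles in RNA or ribosome biology had 10 of 11 listed genes in the table, with a median log2 ratio of -0.07. Of these, 0 were higher and 0 lower, against backgrounds of 3.28% and 2.7%. ZNF638, which binds RNA and cytidine-rich DNA, had 102 FPKM in resistant and 117 FPKM in parental cells. ZNF207 (BuGZ), which loads BUB3 onto kinetochores, had 72.4 FPKM in resistant and 84.6 FPKM in parental cells. ZNF326, part of the DBIRD complex that couples transcription with splicing, had 32.5 FPKM in resistant and 49.8 FPKM in parental cells, a log2 ratio of -0.60 and the lowest of this list. The remaining genes differed by less: ZNF598, the ubiquitin ligase that detects collided ribosomes, had 36.1 FPKM in resistant and 36.5 FPKM in parental cells, and ZNF593 and ZNF622, which take part in ribosome assembly, had ratios of 0.06 and -0.12. The mRNA decay factors ZFP36L1 and ZFP36L2 had ratios of -0.11 and -0.04.

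Developmental regulators had 7 of 14 listed genes in the table, with a median log2 ratio of -0.08. Of these, ZNF804A was lower and 0 were higher, against backgrounds of 2.7% and 3.28%. ZNF423 enters this list and its median at 0.28 from a locus without a strand, and on the annotated strand its ratio was -0.57. ZNF503, a repressor active in the developing brain, had 132 FPKM in resistant and 101 FPKM in parental cells and was among the most abundant members. Its relative ZNF703 had 2.72 FPKM in resistant and 2.93 FPKM in parental cells. ZNF608 had 13.6 FPKM in resistant and 10.1 FPKM in parental cells, and its paralog ZNF609 had 17.0 FPKM in resistant and 21.6 FPKM in parental cells. The paired genes thus pointed in opposite directions, each by less than the limit. ZNF365, which helps maintain genome stability, had 2.03 FPKM in resistant and 2.94 FPKM in parental cells.

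Members listed as general activators had 6 of 6 listed genes in the table, with a median of -0.13. Of these, 0 passed the limit, against backgrounds of 3.28% higher and 2.7% lower. ZNF143, which binds many promoters, had 23.5 FPKM in resistant and 29.7 FPKM in parental cells. ZNF281, which restrains differentiation, had 10.0 FPKM in resistant and 12.9 FPKM in parental cells, and ZNF384, known from leukaemia fusions, had 25.9 FPKM in resistant and 24.3 FPKM in parental cells. Their ratios lay between -0.34 and 0.09. ZNF148 and ZNF395 lay within that range at -0.13 each. Outside the list, ZFP64 had 13.4 FPKM in resistant and 13.6 FPKM in parental cells, and the ubiquitin ligase ZFP91, whose locus is joined with CNTF, had 47.1 FPKM in resistant and 50.8 FPKM in parental cells.

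Several other members in which no KRAB or SCAN domain was called stood near the edges of the distribution. ZNF711, an X-linked factor that recruits the demethylase PHF8, had 21.2 FPKM in resistant and 38.5 FPKM in parental cells, a log2 ratio of -0.83. ZNF280C, also X-linked, had 14.5 FPKM in resistant and 25.4 FPKM in parental cells, a log2 ratio of -0.77. In the other direction ZNF185, an actin-binding LIM protein that has the name but 0 C2H2 fingers, had 24.04 FPKM in resistant and 13.05 FPKM in parental cells, a log2 ratio of 0.83. ZNF277, ZNF467 and ZNF512B had ratios of 0.57, 0.48 and 0.44. The most abundant members differed little: ZNF706 had 132 FPKM in resistant and 118 FPKM in parental cells, ZNF518A had 87.2 FPKM in resistant and 95.3 FPKM in parental cells, and ZNF511 had 60.0 FPKM in resistant and 58.6 FPKM in parental cells.

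The 7 antisense RNAs named after members had a median log2 ratio of -0.57, with 6 of 7 below 0, against 55.6% of all names. ZNF295-AS1 alone passed the limit, against a background of 2.7% lower. ZNF295-AS1, ZNF32-AS3 and ZNF32-AS2 reached 1 FPKM in parental cells only. The filter thus fixed their sign, and the median and the count below 0 show no trend of the group by themselves. ZNF503-AS1 had 6.46 FPKM in resistant and 11.9 FPKM in parental cells, a ratio of -0.80, opposite in sign to ZNF503, whereas ZNF503-AS2 had 7.38 FPKM in resistant and 6.54 FPKM in parental cells. ZNF436-AS1 had 2.66 FPKM in resistant and 4.45 FPKM in parental cells, beside 8.42 FPKM in resistant and 9.41 FPKM in parental cells for ZNF436. ZNF32-AS3 had 0.485 FPKM in resistant and 1.58 FPKM in parental cells at a locus without a strand, at a ratio of 4 to 13. Whether the FPKM were computed by strand is not given in the sources used here, so whether reads of an antisense RNA and of an overlapping partner were kept apart is unknown. Of the 8 pseudogene names none passed the limit, against backgrounds of 3.28% higher and 2.7% lower. The highest was ZNF204P at 5.04 FPKM in resistant and 2.76 FPKM in parental cells, a gene whose reads could be shared with near-identical copies.

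The number of fingers did not order the ratios. The median protein had 8 C2H2 fingers and the longest array, in ZNF142, had 35. Members with 1 to 5 fingers had a median log2 ratio of -0.03 over 62 names, those with 6 to 10 had -0.08 over 83 names, and those with over 10 had -0.04 over 78 names. Among the 76 members with a mean under 5 FPKM 2.63% were higher and 3.95% lower, against 7.002% and 4.58% of all names at that level. Among the 133 members with a mean of 5 to 20 FPKM 0 were higher and 1.504% lower, against 3.48% and 2.74% of all names. Among the 40 members with a mean of 20 FPKM or over 0 were higher and 1, ZNF669, was lower (2.50%), against 1.09% and 1.66% of all names. The lower shares thus stood on both sides of those of all names, on counts of 3, 2 and 1 members.

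Neighbouring members were compared next, since many of these genes sit in small groups. On chromosome 15 all 9 members lay below 0, with a median log2 ratio of -0.19. The 414 genes compared on that chromosome had a median of -0.20, with 78.0% of them below 0. ZNF774, at 0.921 FPKM in resistant and 1.58 FPKM in parental cells, passed the filter through parental cells only, which fixed its sign. ZNF710 is counted here from a locus without a strand. On chromosome 17, 8 of 9 members lay below 0, with a median of -0.22, against -0.16 over 727 genes, of which 73.0% lay below 0. Chromosome 16, which holds 32 members, had a median of 0.05, against 0.02 over 560 genes. Chromosome 4 departed further from its other genes, with a median of -0.26 over 8 members, against -0.03 over 445 genes.

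Among runs of members at most 1 Mb apart, the lowest was at the end of chromosome 1, from 246945547 to 247331846, where all 5 names lay below 0 with a median of -0.53. Besides ZNF669 it holds ZNF670, which shares its locus with the readthrough name ZNF670-ZNF695, at 21.0 FPKM in resistant and 30.9 FPKM in parental cells, ZNF124 at 11.03 FPKM in resistant and 12.7 FPKM in parental cells, and ZNF496 at 8.33 FPKM in resistant and 10.98 FPKM in parental cells. The locus of ZNF670 enters this run under both names, and the median of the run is its value. The 1 other gene compared within that span had -0.42. On chromosome 7, from 64307459 to 65401135, all 7 members lay below 0 with a median of -0.28, led by ZNF92 at 14.1 FPKM in resistant and 21.2 FPKM in parental cells and ZNF138 at 7.25 FPKM in resistant and 10.6 FPKM in parental cells. ZNF117 in this run shares its locus with ERV3-1. The 2 other genes there had a median of -0.12. The largest run, 13 members on chromosome 16 from 30378106 to 31917357, had a median of 0.04, and the 12 members at the end of chromosome 7 had -0.09. Genes of a run are neighbours in 1 genome and are not independent, and copy number was not measured.

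**Figure D5:**
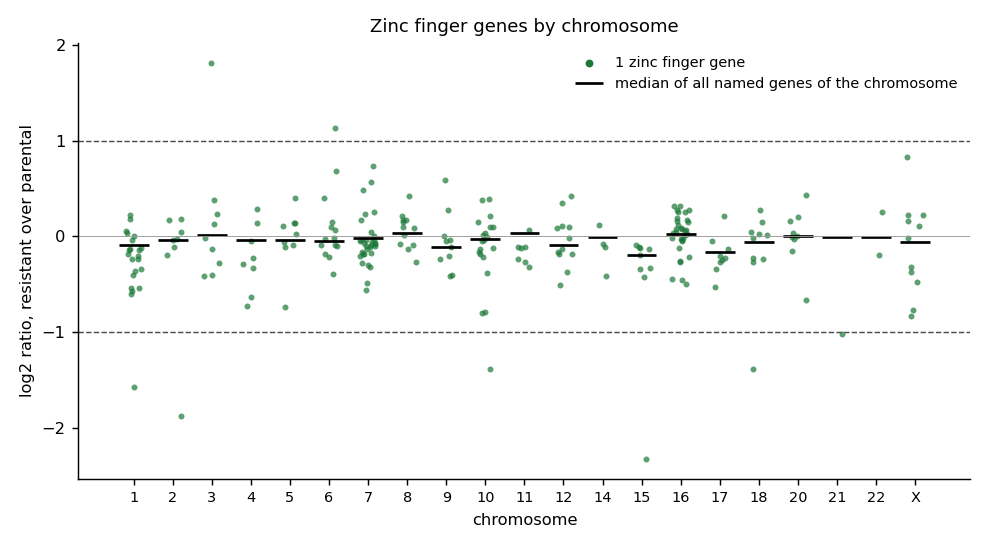
Log2 ratio of each member, 1 point per name, by chromosome, with a bar at the median of all genes compared on that chromosome. All 9 members on chromosome 15 lie below 0, where the median of all its genes is -0.20 and 78.0% of them lie below 0. The members of chromosome 16 centre on 0.05.

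A RefSeq promoter window was found for 208 of the 249 members. The windows held a median of 20 CpG pairs, against 17 for zinc finger names on chromosome 19 and 21 over all 9121 names with a window. The ETS core was present on either strand in 60 member windows, or 28.8%, as in 29.4% of windows on chromosome 19, against 16.1% over all names compared and 8.82% of all 27305 windows. The GC box was less frequent in member windows than over all names, at 58.7% against 68.7%. The core ACTACAA of the ZNF143 site, or its reverse complement TTGTAGT, was found in 12 member windows, or 5.77%, against 3.68% over all names. These motifs did not separate the ratios: the median was -0.05 with the ETS core and -0.10 without it, and -0.09 with the GC box and -0.06 without it. Members whose window held under 10 CpG pairs, ZNF532 among them, had a median of -0.20 over 22 names, against -0.08 over 117 names with 10 to 24 and -0.07 over 69 names with 25 or more.

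Markers of cell types were sparse in both libraries. Of 10 small cell and neuroendocrine markers 5 had a locus: YAP1 had 84.7 FPKM in resistant and 76.6 FPKM in parental cells, SYP had 8.62 FPKM in resistant and 8.56 FPKM in parental cells, and SCG2, a granule protein, had 20.1 FPKM in resistant and 108.7 FPKM in parental cells, while CHGB and NCAM1 stayed under 2 FPKM in both. Of 5 epithelial markers 2 had a locus, with CDH1 at 4.81 FPKM in resistant and 0.536 FPKM in parental cells and KRT8 at 2.36 FPKM in resistant and 2.09 FPKM in parental cells. Of 5 blood markers 2 had a locus, CORO1A at 16.8 FPKM in resistant and 26.1 FPKM in parental cells and HBB at 0.472 FPKM in resistant and 2.69 FPKM in parental cells. Of 5 fibroblast markers 2 had a locus, COL3A1 at 7.51 FPKM in resistant and 1.18 FPKM in parental cells and COL1A1 at 3.85 FPKM in resistant and 2.34 FPKM in parental cells, and of 4 endothelial markers 0 did. Their part in the differences of zinc finger genes was not tested.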

How the data were processed

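RNA of 1 resistant and 1 parental SBC5 culture was compared. Per the file headers, the authors deposited a table of FPKM with a column for each library. The submitters' processing notes list TopHat2, without a version, and hg38. Which program and gene models gave these FPKM is not given in the sources used here. Sample descriptions matched the columns to groups, leaving 0 over. Depth is unknown, since the table holds no counts.

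Of 19217 loci, 2919 had no name and 23 had a name turned into a date, and these were left out. A name in a joined locus counted as a name of its own, and 7 chosen loci were joined. Strand parts were inferred from the order of loci against GENCODE 29 and are not recorded in the table; 12928 loci were placed and 6289 had no strand. KRAB, SCAN and C2H2 patterns were searched in translations of the longest GENCODE 29 coding sequence per gene, a source chosen after the data were seen because no protein table was used. KRAB and SCAN were called by score profiles built from these proteins, with cuts of 20 and 25. A protein under a cut counts as without the domain, and whether domains were missed was not tested. A C2H2 finger was a pair of cysteines with 2 to 4 residues between them, 12 residues, then a histidine and, after 2 to 6 residues, a histidine or cysteine. Whole-number ratios were searched with the factor 0.996 between libraries: among 7591 loci under 5 FPKM, 52.9% fitted within 2e-05, against 0.270% with 20 wrong factors.

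The 12 highest and 12 lowest ratios, the 6 most abundant members, role-list members past the limit and 36 names chosen by hand, of which 30 had a locus, were to be named. Those without a locus are not analysed here. Further genes, in neighbourhoods and pairs, were picked with their values in view. The members and lists were chosen with earlier results of these data known. Python 3.11.15, pandas 2.3.3, NumPy 2.4.6, SciPy 1.17.1, matplotlib 3.10.9 and Biopython 1.88 were used, and the steps were tested on simulated data. Pseudocount, filter, scaling, locus and fold limit were varied.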

Additional observations from a re-analysis of the deposited data

How the results depend on the processing

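The count of 2 members higher in resistant cells became 0 with a pseudocount of 5 FPKM and 0 at a 4-fold limit. It became 1 with the loci of a name summed, 1 with loci on the annotated strand only and 1 without the 12 members at whole-number ratios (this setting was added once the data had been seen). The count of 6 lower became 3 with a pseudocount of 5 FPKM, 1 at a 4-fold limit and 3 without the whole-number ratios. No background share was computed without the whole-number ratios, so the 2 counts of that setting cannot be set beside all names. Scaling both libraries to equal sums moved medians to -0.14 over the members, -0.12 over KRAB members and -0.17 over members with neither domain called. The same scaling gave -0.11 over SCAN members and -0.21 over the corepressors, and dividing by the median ratio gave -0.04 over the members, -0.02 over KRAB members and -0.02 over SCAN members. All medians tried stayed below 0, and the counts not given here stayed within 1.5 times. Of the named genes, 5 came inside the limit with a pseudocount of 5 FPKM: ZNF852 at 0.85, ZNF165 at 0.63, ZNF295-AS1 at -0.29, ZNF485 at -0.78 and ZNF532 at -0.92. ZNF804A, ZNF669 and ZNF710 stayed past it, and ZNF710 reached -0.10 on the annotated strand. No paired analysis was possible because the 2 groups have 1 library each. For the same reason no replicate could be left out, and the table gives no depth, so counting error cannot be set beside these differences.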
